A study of Bos taurus with 16 samples.

Results

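Whole blood of crossbred beef steers held a small set of very abundant RNAs with a length of 300 bp or up to 2 bp less, the size of 7SL RNA. The 8 genes described here were chosen by 2 measured values, the gene length recovered from the deposited FPKM (300 bp or up to 2 bp less) and a summed count over all steers of at least 0.2% of the whole count table. They are 8 of 27607 genes listed. Only their size ties them to 7SL, because the deposited tables give Ensembl identifiers alone and 0 of these identifiers matched the RefSeq gene table of assembly ARS-UCD2.0. That table holds 1 gene of the signal recognition particle RNA type, RN7SL1, with a length of 299 bp.

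7SL RNA is the scaffold of the signal recognition particle, the complex that binds a signal peptide as it leaves the ribosome, slows translation and brings the ribosome to its receptor on the endoplasmic reticulum. It is made by RNA polymerase III, is present in every cell that secretes or inserts proteins into membranes, and carries no poly(A) tail, so it is read in libraries built from total RNA. Mammalian genomes hold several near-identical genes for it and many truncated or diverged copies. The proteins of the particle, its receptor and the translocon were not analysed here, since the identifiers could not be paired with symbols. For the same reason the blood origin of the samples was not checked against marker genes.

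The samples came from 16 steers on the same high-forage mixed ration, 8 labelled high RFI and 8 labelled low RFI, taken from the extremes of residual feed intake (RFI), the intake that weight and gain do not predict. Each steer gave 1 library from blood of several days that was composited before extraction, so days within a steer cannot be told apart. The library kit was one meant to remove ribosomal and globin RNA, named for human, mouse and rat. How much of either was left in these bovine samples was not examined here. Neither age nor breed makeup is known for the single animals. Counts on genes ran from 4.80 to 12.2 M per steer. The group names under which the study lists its read numbers followed the counts, taken in listed order, only when exchanged. The sample titles begin with LFE in steers labelled low RFI and with HFE in those labelled high RFI. If these letters mean low and high feed efficiency, the titles go against the labels too. All directions given here are therefore those of the sample labels and would turn round under the listed names. In whole blood, fewer cells of a type and less RNA per cell cannot be told apart.

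The 8 genes together took 11.1% of all counts, 15.03 M of 135 M. Their summed counts ranked between 2 and 21 among all genes, and 5 of them stood among the 10 highest. Of the members, 4 had a length of 300 bp, 3 of 299 bp and 1 of 2 bp under 300. In order of abundance they were ENSBTAG00000047947 (300 bp, 2.35% of the table), ENSBTAG00000050180 (300 bp, 2.31%), ENSBTAG00000047242 (300 bp, 2.05%) and ENSBTAG00000055172 (299 bp, 1.76%). Below these lay ENSBTAG00000049916 (299 bp, 1.21%), ENSBTAG00000049700 (2 bp under 300, 0.847%), ENSBTAG00000048534 (299 bp, 0.321%) and ENSBTAG00000048346 (300 bp, 0.287%). These shares chose the members and are given as a description.

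**Figure D1:**
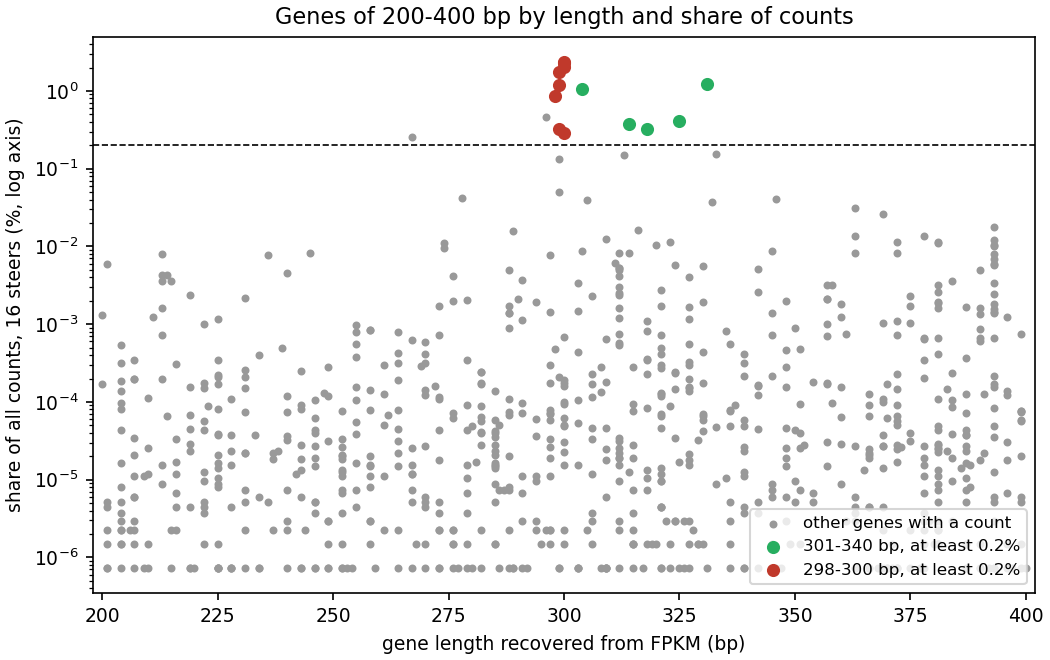
Each point is 1 gene of 200 to 400 bp with at least 1 count, with its recovered length in bp on the x axis and its share of all counts of the 16 steers in percent on a log y axis; the dashed line marks 0.2%. The 8 genes described here (red, 300 bp or up to 2 bp less) lie between 0.287% and 2.35%, and the 5 abundant genes over 300 and up to 340 bp (green) between 0.326% and 1.23%.

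The limit of 0.2% fell in a gap between genes, but a wider step lay among the members, from 0.847% to 0.321%. In ratio, the widest step among genes of these lengths lay below the limit, from 0.0503% to 0.000675%. Among the 28 genes of these lengths, the other 20 together held 0.186% of the counts. The highest of them, ENSBTAG00000045781 (299 bp), held 0.133%, against 0.287% in the lowest member, and the next, ENSBTAG00000053184 (299 bp), held 0.0503%. The remaining 18 had between 1 and 911 counts over all 16 steers. By length, the nearest genes over 0.2% were ENSBTAG00000047359 at 296 bp, with 0.465%, and ENSBTAG00000043482 at 304 bp, with 1.05%.

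The share of the 8 genes differed widely between steers. It was 6.78% of the counts at the lowest, in steer 4 (labelled low RFI; exact 95% binomial interval 6.76% to 6.80%, which covers counting error only), and 14.2% at the highest, in steer 12 (labelled high RFI), with a median of 10.9%. After division by the size factors, the summed count of the 8 genes had a coefficient of variation of 21.9% over the 16 steers. Steers labelled high RFI ran from 8.04% to 14.2%, with a median of 10.9% and a mean of 11.5% ± 2.18 (SD, n = 8). Steers labelled low RFI ran from 6.78% to 13.4%, with a median of 10.9% and a mean of 10.3% ± 2.197 (SD, n = 8). The ranges of the groups overlapped over most of their length, and the difference of 1.22 percentage points between the means was smaller than the SD of either group. Steers 10, 11 and 12, all labelled high RFI, and steer 6, labelled low RFI, had the highest shares, whereas steers 1 and 4 (low RFI) and steer 14 (high RFI) had the lowest.

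**Figure D2:**
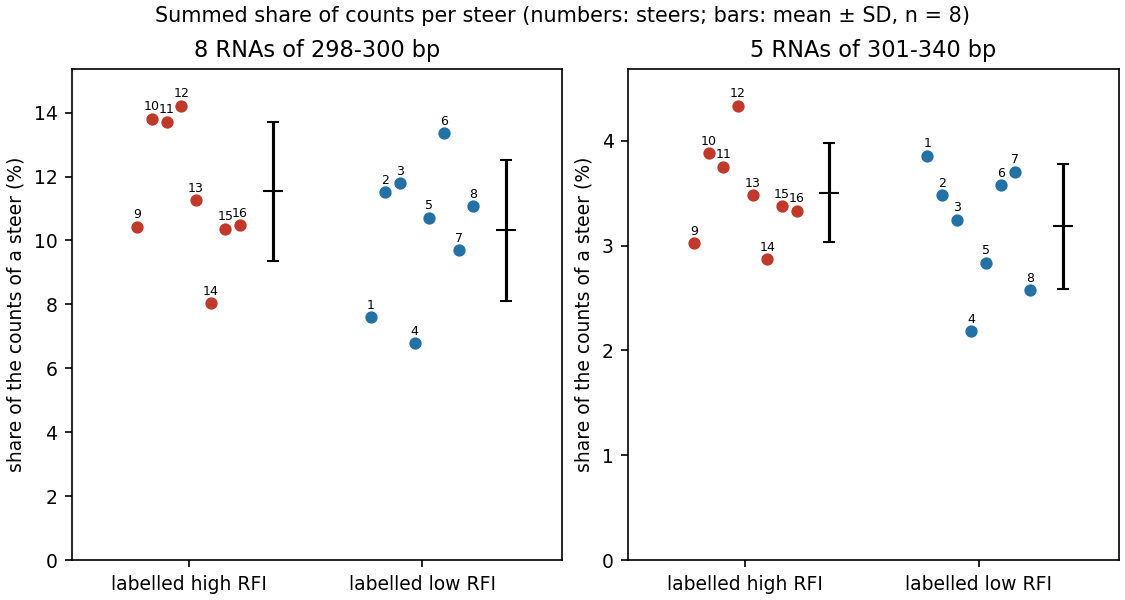
The left panel plots the summed share of the 8 RNAs of about 300 bp in the counts of each steer (percent), and the right panel that of the 5 abundant RNAs over 300 and up to 340 bp; each point is a steer with its number, and bars give mean ± SD (n = 8). On the left the points run from 8.04% to 14.2% in steers labelled high RFI and from 6.78% to 13.4% in those labelled low RFI.

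FPKM allows the genes to be compared per length. In the leading gene, ENSBTAG00000047947, the lowest FPKM in steers labelled high RFI was 54992, the median 80282 and the highest 101303, and in steers labelled low RFI these were 44527, 77096 and 94908. For ENSBTAG00000050180 they were 54262, 78662 and 99771 in high RFI and 43791, 75642 and 93767 in low RFI. The third gene of 300 bp, ENSBTAG00000047242, had 47773, 70294 and 88238 in high RFI and 39034, 67026 and 82756 in low RFI. All 3 rose and fell together from steer to steer, with the groups overlapping. For ENSBTAG00000055172 the lowest, median and highest FPKM were 41314, 58731 and 77417 in high RFI and 33735, 57867 and 71237 in low RFI. ENSBTAG00000049916 reached 61022 in steer 12 from a lowest value of 30190 and a median of 42170 in high RFI, and ran from 22934 over 39848 to 47180 in low RFI. ENSBTAG00000049700 had 21173, 28600 and 37935 in high RFI and 16000, 27520 and 33896 in low RFI. The groups overlapped in these 3 genes too, and steer 12 alone carried the top of ENSBTAG00000049916. The 2 least abundant members were far below: over all 16 steers ENSBTAG00000048534 ran from 6156 to 13786 FPKM and ENSBTAG00000048346 from 5495 to 12519.

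The order of the levels was fixed within steers. From ENSBTAG00000047947 down to ENSBTAG00000049700, and from there to the 2 least abundant members, each gene lay above the next in 16 of 16 steers. Only ENSBTAG00000048534 and ENSBTAG00000048346 changed places, with the former above in 15 of 16 steers. Each gene varied between 2.24-fold and 2.66-fold from its lowest to its highest normalized count. Across steers the ranges of neighbours in this order overlapped, except between ENSBTAG00000049700, with at least 16000 FPKM, and ENSBTAG00000048534, with at most 13786. The SD of the log2 normalized counts over the 16 steers was between 0.34 and 0.37 for the 8 genes, and 0.25 for the median of the 13265 genes tested. Of these genes, 68.2% had a smaller SD than the least variable member and 72.1% a smaller one than the most variable member.

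**Figure D3:**
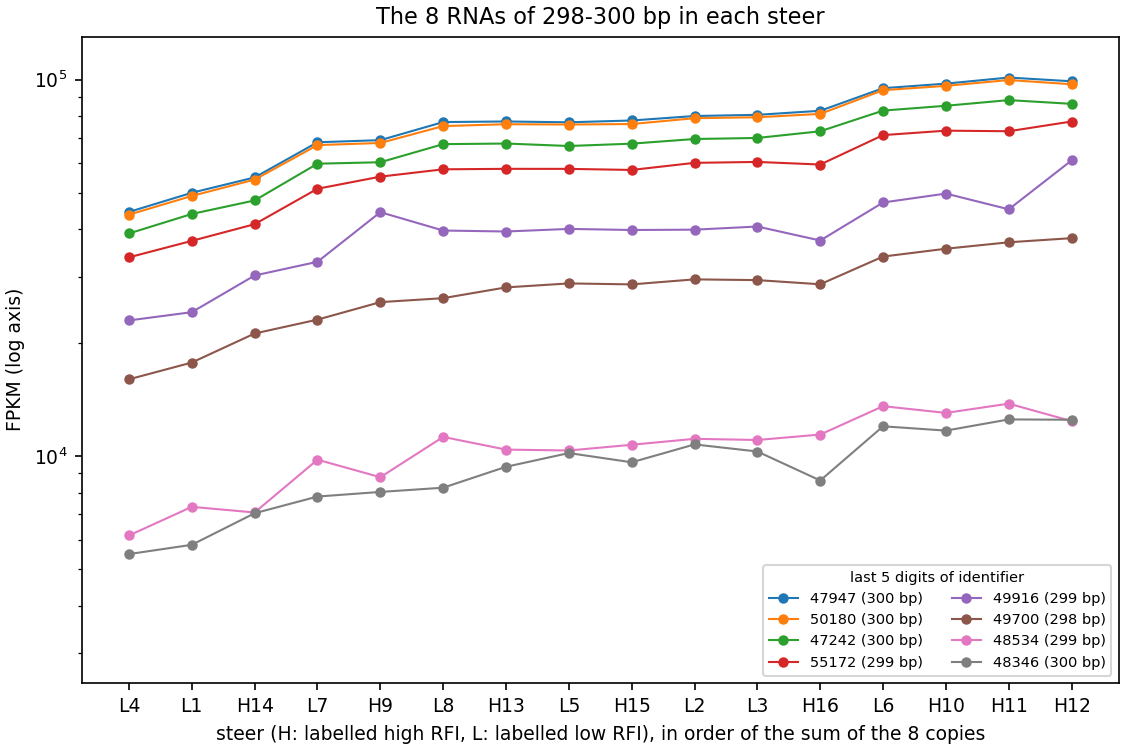
FPKM of the 8 genes (log y axis) in each of the 16 steers, which are placed on the x axis by the sum of the 8 genes from the lowest (steer 4) to the highest (steer 12); H marks steers labelled high RFI and L those labelled low RFI. The lines run nearly parallel, with ENSBTAG00000049916 raised in steers 9 and 12.

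The ratios between the genes do not depend on the size factors. The count of ENSBTAG00000050180 was between 0.976 and 0.988 of that of ENSBTAG00000047947 in every steer. The SD of this log2 ratio over the 16 steers was 0.0049, and counting error alone (Poisson) gives 0.0049. For ENSBTAG00000047242 the ratio to the leading gene ran from 0.865 to 0.882, with an SD of 0.0074 on the log2 scale against 0.0051 from counting error. The counts of the 3 genes of 300 bp at the top thus kept nearly constant proportions in all 16 steers, while each changed at least 2.24-fold. How reads that align to several near-identical genes were counted is not known. The effect of this on the proportions was not tested.

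In the comparison of the groups, the log2 ratio of ENSBTAG00000050180 to ENSBTAG00000047947 had a mean of -0.024 with an SD of 0.0041 in the 8 steers labelled high RFI, and of -0.024 with an SD of 0.0058 in the 8 labelled low RFI. The means differed by -0.00064, less than the SD of either group (exact permutation test, two-sided, 12870 assignments, p = 0.806). This was the only ratio tested. Its spread over the steers was no larger than counting error, so the result says nothing about the ratios that varied more.

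The other ratios varied more from steer to steer. The counting error given beside them assumes independent reads and holds no difference between animals. ENSBTAG00000055172 had between 0.743 and 0.755 of the leading count in steers labelled low RFI and between 0.717 and 0.797 in those labelled high RFI. ENSBTAG00000049916 varied most, from 0.480 to 0.519 in low RFI and from 0.445 to 0.642 in high RFI, with an SD of 0.14 on the log2 scale against 0.0060 from counting error. The highest ratios of both genes belonged to steers 9 and 12, with 0.642 and 0.614 for ENSBTAG00000049916 and 0.797 and 0.779 for ENSBTAG00000055172, and the lowest to steers 11 and 16, with 0.445 and 0.451 and with 0.718 and 0.717. All 4 of these steers were labelled high RFI. Without steers 9 and 12, which were singled out after the ratios had been seen, the highest ratio of ENSBTAG00000049916 in the other 14 steers was 0.547 and the SD 0.079.

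The same steers stood at the ends of some genes just outside the rule, but not of all. The ratio of ENSBTAG00000047359 (296 bp) to the leading gene was 0.283 in steer 9 and 0.266 in steer 12, against at most 0.215 in the other 14 steers, and its lowest values were 0.148 in steer 11 and 0.156 in steer 16. For ENSBTAG00000053184 (299 bp) steers 9 and 12 had 0.0274 and 0.0266, and the other 14 at most 0.0249. For ENSBTAG00000045781 (299 bp) steer 9 was highest with 0.0655, but steer 12, with 0.0612, lay below steer 1 with 0.0618. For ENSBTAG00000043482 (304 bp) steers 9 and 12 had 0.442 and 0.463, near the median of 0.449, and steer 1 was highest with 0.753. In the opposite direction, the 2 lowest ratios of ENSBTAG00000048534 were those of steer 12 (0.125) and steer 9 (0.127). Steers 9 and 12, singled out after the ratios had been seen, thus stood apart in the ratios of some of these RNAs. The summed share of the 8 genes was 10.4% in steer 9 and 14.2% in steer 12, against a median of 10.9% over all steers. No source used here says how the authors counted reads that align to several near-identical genes, so the split of counts between the genes, and any count of 1 read for several of them, is uncertain.

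Among the remaining members, ENSBTAG00000049700 had between 0.336 and 0.382 of the leading count over all steers. ENSBTAG00000048534 had a median of 0.134 in high RFI (range 0.125 to 0.138) and of 0.140 in low RFI (0.134 to 0.146), with overlapping groups. On the log2 scale its mean ratio was -2.92 (SD 0.054) in high RFI and -2.83 (SD 0.045) in low RFI. These means lay farther apart than the SD of either group, and the difference was not tested. ENSBTAG00000048346 ran from 0.104 to 0.128 in high RFI and from 0.107 to 0.134 in low RFI, the lowest value being that of steer 16. Its SD on the log2 scale was 0.10 against 0.011 from counting error.

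**Figure D4:**
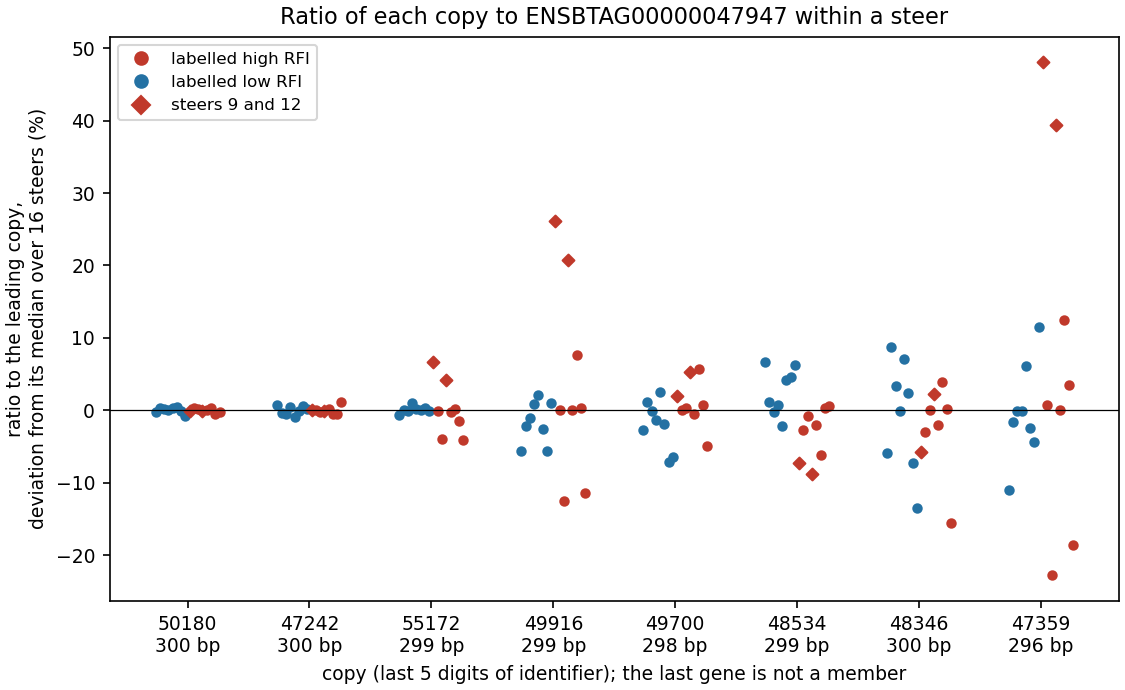
For each of the other 7 members and the 296 bp gene ENSBTAG00000047359, points give the ratio of its count to that of ENSBTAG00000047947 in each steer, as percent deviation from the median ratio of the 16 steers; red marks steers labelled high RFI, blue those labelled low RFI and diamonds steers 9 and 12. The first 2 genes lie close to the line in all steers, with ratios from 0.976 to 0.988 and from 0.865 to 0.882, whereas steers 9 and 12 stand apart in ENSBTAG00000049916, where their ratios were 0.642 and 0.614.

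The study compared the blood transcriptome of steers of high and low RFI by gene sets. For the 8 genes taken singly, no difference between the groups passed the test. In the quasi-likelihood test of edgeR, fitted on all genes with Benjamini-Hochberg adjustment, 0 of the 8 passed FDR 0.05, as did 0% of the 13265 genes tested. At an unadjusted p under 0.05 stood 0 of the 8, against 5.22% of all genes tested. The log2 fold change of high over low RFI was above 0 in 8 of 8, against 50.6% of all genes, but genes with near-constant ratios take their sign together and are not independent. The sign was not particular to the 8. It was shared by the 5 abundant genes over 300 and up to 340 bp (0.13 to 0.26). ENSBTAG00000053184 (299 bp) had 0.33, above every member, with an edgeR adjusted p of 0.941. ENSBTAG00000048620 (299 bp) and ENSBTAG00000048514 (300 bp), both with few counts, went the other way (-0.34 and -0.25). The median of the 8 members was 0.20, that of all genes tested 0.00, and single values of the members ran from 0.12 to 0.27. The Wald test of DESeq2 also called 0 of the 8, and 0.0333% of the 21016 genes it was fitted on, those without an adjusted p included.

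For ENSBTAG00000047947 the log2 fold change was 0.20 with a standard error of 0.16, a 95% interval from -0.13 to 0.53 and an edgeR adjusted p of 0.987. The largest value was that of ENSBTAG00000049916, 0.27 with a standard error of 0.16, an interval from -0.06 to 0.61 and an edgeR adjusted p of 0.965. The smallest was 0.12 in ENSBTAG00000048534, with an interval from -0.21 to 0.45. The intervals of all 8 genes included 0. On the log2 scale their lower ends lay between -0.21 and -0.06 and their upper ends between 0.45 and 0.61. Neither falls nor rises in high RFI up to those sizes are excluded.

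**Figure D5:**
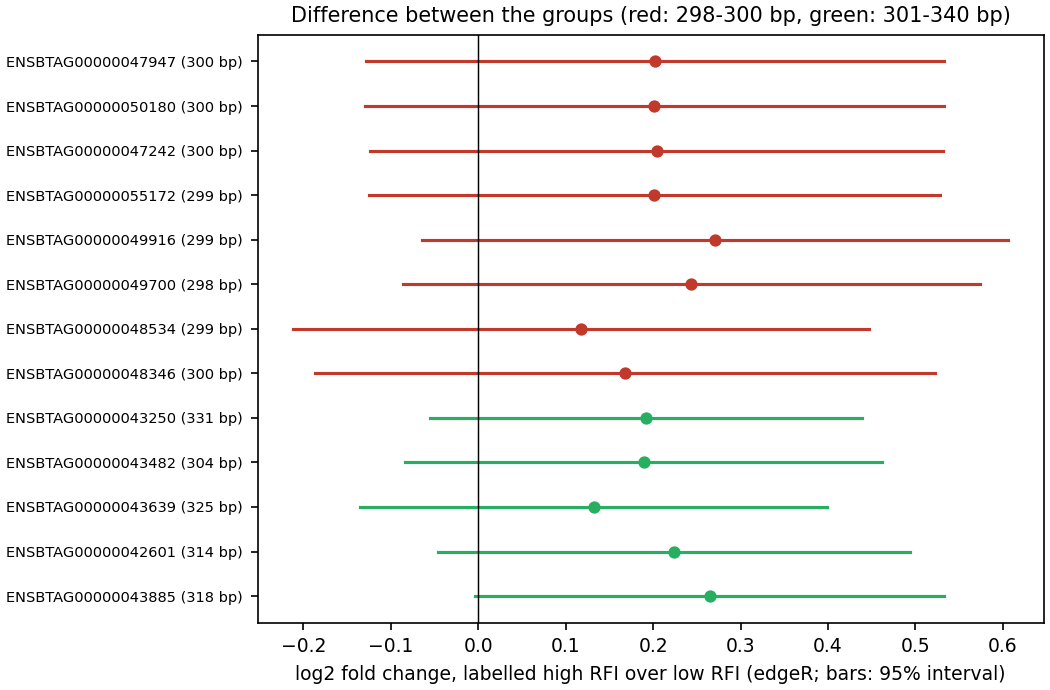
Points give the edgeR log2 fold change of steers labelled high RFI over those labelled low RFI, and bars its 95% interval, for the 8 genes of about 300 bp (red) and the 5 abundant genes over 300 and up to 340 bp (green). The red points lie between 0.12 and 0.27 and every bar crosses 0.

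The abundant RNAs next above them in length are 5 genes over 300 and up to 340 bp, the size of 7SK RNA, the scaffold of a particle that holds the elongation factor P-TEFb inactive. They took 3.40% of all counts, between 2.18% and 4.33% per steer. Their most abundant gene, ENSBTAG00000043250 (331 bp, 1.23% of the table), went with the leading gene of 300 bp over the 16 steers (log2 normalized counts, Pearson r = 0.667, permutation p = 0.00550, adjusted over 2 relations 0.0110; Spearman rho = 0.662, permutation p = 0.00709, adjusted 0.0142). Without steers 4 and 8, the farthest from the median of ENSBTAG00000043250, r was 0.555. Within the groups r was 0.930 in steers labelled high RFI and 0.431 in those labelled low RFI, and the difference between them was not tested. The ratio of ENSBTAG00000043250 to the leading gene ran from 0.401 to 0.853, the highest in steer 1, with an SD of 0.26 on the log2 scale, and the other 4 genes of this size had SDs of 0.25 to 0.26. Among these 4 was the 304 bp gene just outside the rule, ENSBTAG00000043482, with 0.26, and no member exceeded 0.14. Length did not separate the values, since the ratio of the 296 bp gene ENSBTAG00000047359 had an SD of 0.24 and that of the less abundant 313 bp gene ENSBTAG00000046622 one of 0.046. Whether these spreads differ was not tested.

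No relation of the leading gene to depth passed the test. Against the counts on all genes but the 8, its log2 normalized count had r = 0.367 (permutation p = 0.162, adjusted over the same 2 relations 0.162) and rho = 0.306 (permutation p = 0.250, adjusted 0.250). Steer 4, with the fewest counts, had the lowest level and steer 6, with the most, was among the highest 4. Without these 2 steers, the farthest from the median depth, r was -0.138. Within the groups it was above the pooled value, 0.605 in steers labelled high RFI and 0.451 in those labelled low RFI.

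Outside the members, the genes with a pattern over the 16 steers most like that of ENSBTAG00000047947 were again short. The closest of 13257 genes was ENSBTAG00000046622 (313 bp, 0.149% of the table), with a Pearson r of 0.992 on log2(normalized count + 1) and between 0.0580 and 0.0662 of the leading count. ENSBTAG00000046888 (267 bp, 0.255%) followed with 0.956 and ENSBTAG00000045781 (299 bp, 0.133%) with 0.954. The other 7 members had between 0.926 and 0.9999, and the median over the 13257 genes was 0.01. ENSBTAG00000043250 came at rank 93 with 0.667. The points of these correlations share library and size factor, and the values are a description with n = 16.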

How the data were processed

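Whole-blood RNA-seq of 16 steers was used, with groups from the RFI label and the steer number from the title. The authors used Trimmomatic 0.39 for trimming, HISAT2 2.2.1 for alignment to the genome build ARS-UCD1.2, SamTools for marking duplicates and GenomicAlignments for counting per gene. No source used here names the annotation, the use of strand or the treatment of reads with several alignments. The authors deposited raw counts, normalized counts (a signal, the counts divided by 1 size factor per steer, 0.622 to 1.46) and FPKM. Length was recovered by dividing normalized counts by FPKM and by the geometric mean of the 16 raw totals, and was whole to within 0.001 bp in 100% of the 21016 genes with a count. The other 6591 genes have no length.

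Raw counts were tested with edgeR 4.0.16 (quasi-likelihood, robust dispersion, TMM factors, the filterByExpr filter and Benjamini-Hochberg adjustment over all genes tested), in R 4.3.3. Standard errors and 95% intervals were derived from its F statistic. DESeq2 1.42.0 and limma 3.58.1 on log2(FPKM + 1) served as alternatives, together with other factors, no filter and leaving out each steer. All 3 were tested on simulated data. No covariate was used, since neither pen nor breed nor batch is known per animal, and no pairing exists. Single values were compared with exact permutation tests, and relations with 100000 random permutations. Counting error of a ratio is the Poisson error of both counts.

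The members and the lists were chosen with earlier results of these data known. Named were all members, the genes next to the limits of the rule, the most abundant gene over 300 and up to 340 bp and the 3 genes most like the leading member. The lists of signal recognition particle, polymerase and blood marker genes were not used, as 0 identifiers matched a symbol. Sequences were not analysed here.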

Additional observations from a re-analysis of the deposited data

How the results depend on the processing

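With all steers, edgeR called 0 genes at FDR 0.05 under every other normalization, without the filter, and so did limma, while DESeq2 called 7. Without 1 steer the number in edgeR ran from 0 to 25, with 25 without steer 14 and 2 without steer 16, both labelled high RFI. The cause was not tested. None of these calls was one of the 8 genes of about 300 bp, whose lowest adjusted p over all alternatives was 0.753. Their log2 fold changes stayed above 0 with other settings (0.07 to 0.29) and without 1 steer (0.04 to 0.34). These fits reuse the same steers, and the 8 genes take their sign together, so the fits are not independent. The median over the 8 genes was 0.15 with library totals only, which moved the median of all genes to -0.05. Without 1 steer the median over the 8 genes ran from 0.13 (without steer 4) to 0.27 (without steer 14 or 6). Without steer 14, ENSBTAG00000049916 had an unadjusted p of 0.0437.

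The difference in the summed share, 1.22 percentage points between the means, was -0.02 between the medians, 1.41 with the other abundant genes left out of the total, and 0.717 to 1.72 without 1 steer. The difference of the log2 ratio of ENSBTAG00000050180 to ENSBTAG00000047947 was -0.0019 with medians and ran from -0.0023 to 0.00036 without 1 steer, changing sign without steer 2, 6 or 15. The rule gives 8 genes, and 10, 9 or 6 with lengths within 5 bp of 300 or a limit of 0.1% or 0.5%.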
